A study of Bos taurus with 11 samples.

Results

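Amino acid carriers of the solute carrier families SLC1, SLC3, SLC6, SLC7, SLC36, SLC38 and SLC43 were examined in the endometrium of 11 cows. The members are the non-control probes whose gene name in the array files is SLC, one of these family numbers, A and a member number: 99 probes of 43653, for 52 of 25325 gene names. The families were taken whole, so a few members carry other solutes, among them the monoamine carriers SLC6A2 and SLC6A4 and the purine nucleobase carrier SLC43A3. No member was named SLC36A1 or SLC43A1. By RefSeq accession 65 of the 99 probes could be matched to RefSeq genes of assembly ARS-UCD2.0, and 61 of them kept their symbol. Of the other 4, 3 probes named SLC6A9 belong there to LOC515755 and the probe named SLC7A13 to LOC518422. In RefSeq a probe outside the rule belongs to SLC1A2.

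Endometrial biopsies were taken on day 7 of the oestrous cycle and each cow was profiled on 1 Agilent array with a single dye. The 6 fertile cows had become pregnant within 3 inseminations or embryo transfers before the biopsy and again at the first transfer after it. The 5 subfertile cows had failed to conceive 3 times in a row, with cycles that appeared normal and no abnormality found in the genital tract. The groups are defined by breeding history, the labels give no breed, age or treatment, and a biopsy holds all cell types of the tissue. Values are log2 processed signals minus the 75th percentile of the array, so a value of 0 is the brightness of that percentile. Differences are subfertile minus fertile on this log2 scale, with n = 5 and n = 6 cows. Their precision is limited by the number of arrays.

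Amino acid carriers move amino acids across the plasma membrane or the lysosomal membrane, some by coupling them to sodium or protons and some by exchanging one amino acid for another. The light chains SLC7A5 to SLC7A11 work as pairs with a heavy chain, SLC3A2 or SLC3A1, that brings them to the cell surface. In the ruminant uterus, endometrial epithelium secretes amino acids into the lumen, where the conceptus takes them up before it implants, and arginine, leucine and glutamine are known to stimulate mTORC1 signalling in its trophectoderm.

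The arrays differed between the groups in ways that touch every value below. Median processed signals were 161 to 452 on fertile arrays and 54.3 to 92.7 on subfertile arrays. None of the known slides or scan days held both groups, so slide, day and group cannot be told apart. Fertile cows 1 and 3 shared a slide and fertile cows 2 and 5 another, scanned on another day, which gives a difference of slide and day together within the fertile group. Markers of both compartments of endometrium were present, with 13 of 14 epithelial and 9 of 12 stromal markers with a probe well above background on all 11 arrays. The rest, CDH1, COL1A1, PDGFRA and THY1, lacked a value where an outlier spot was left out. They were above background on every array with a value. Of 14 epithelial markers tested, 8 were higher and 0 lower in subfertile cows, with a median difference of 0.53, and their mean ran from 0.91 to 1.47 in fertile and from 1.58 to 1.91 in subfertile cows. Of 12 stromal markers tested, 2 were higher and 2 lower, with a median difference of -0.24. Over all gene names, by the brightest tested probe, 14.2% were higher and 7.91% lower in the test described below. The epithelial mean minus the stromal mean was -2.40 to -1.66 in fertile and -1.56 to -0.79 in subfertile cows, without overlap, and the part of this balance in the carrier differences was not tested. In such bulk samples, fewer cells of a type and less RNA per cell cannot be told apart.

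Carriers of the SLC38 family were the most widely detected of the large families, and many SLC6 and SLC7 probes were dim. The scanner software marks a spot as well above background. That mark was set on all 11 arrays for 43 of the 99 probes and on no array for 28. The SLC38 family had 15 of 24 probes above background on every array, against 10 of 34 in SLC6 and 8 of 20 in SLC7. No probe of 14 genes was above background on any array, in either group: the glutamate carrier SLC1A6, the heavy chain SLC3A1, the SLC6 members SLC6A2, SLC6A5, SLC6A7, SLC6A15, SLC6A17 and SLC6A18, the cationic carriers SLC7A1 and SLC7A2, the cystine carriers SLC7A9 and SLC7A11, and SLC7A13 and SLC7A14. For such a probe only a bound can be given, and for SLC7A1, SLC7A2 and SLC7A11 the array carried 1 probe each. Between 61 and 65 of the 99 probes were above background on fertile arrays, and 60, 48, 51, 49 and 48 on the arrays of subfertile cows 1 to 5. Over all non-control probes the share was 72.0% to 77.4% on fertile and 64.2% to 74.1% on subfertile arrays.

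**Figure D1:**
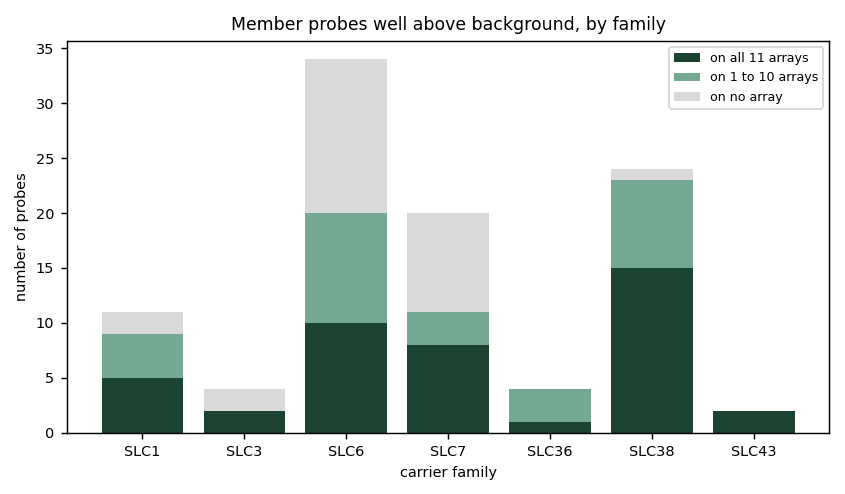
Number of member probes by carrier family, stacked by whether the scanner software marked them well above background on all 11 arrays, on 1 to 10, or on none. The SLC38 bar is mostly dark (15 of 24 probes on all arrays), while SLC6 holds 14 and SLC7 holds 9 probes marked on no array.

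The large neutral carrier SLC7A5 and the GABA carrier SLC6A13 were higher in subfertile cows, each on both of its tested probes. The glutamate carrier SLC1A3 was lower on both of its probes. As a class, the carriers of GABA, taurine, betaine and creatine had 2 probes higher and 2 lower. Probes marked above background on at least 5 of the 11 arrays were tested with limma, with Benjamini-Hochberg adjustment over all 31876 such probes and a threshold of 0.05. Of the 99 member probes, 63 from 36 genes entered the test. Of these, 9 were higher, 14.3% against 14.8% of all probes tested, and 7 were lower, 11.1% against 7.38%. In either direction 25.4% of the tested members passed, beside 22.2% of all tested probes, so the counts lay near the background. Of the 7 lower probes, 3 were above background in every subfertile cow. The calls fell on 11 genes, and SLC6A9 had probes in both directions. The median difference of the tested members was 0.02, with 32 of 63 above 0, and that of all tested probes was 0.07. At 5 member probes all subfertile values exceeded all fertile values, where 9.65% of all tested probes did so, and at 2 probes all of them lay below, where 3.9% did.

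**Figure D2:**
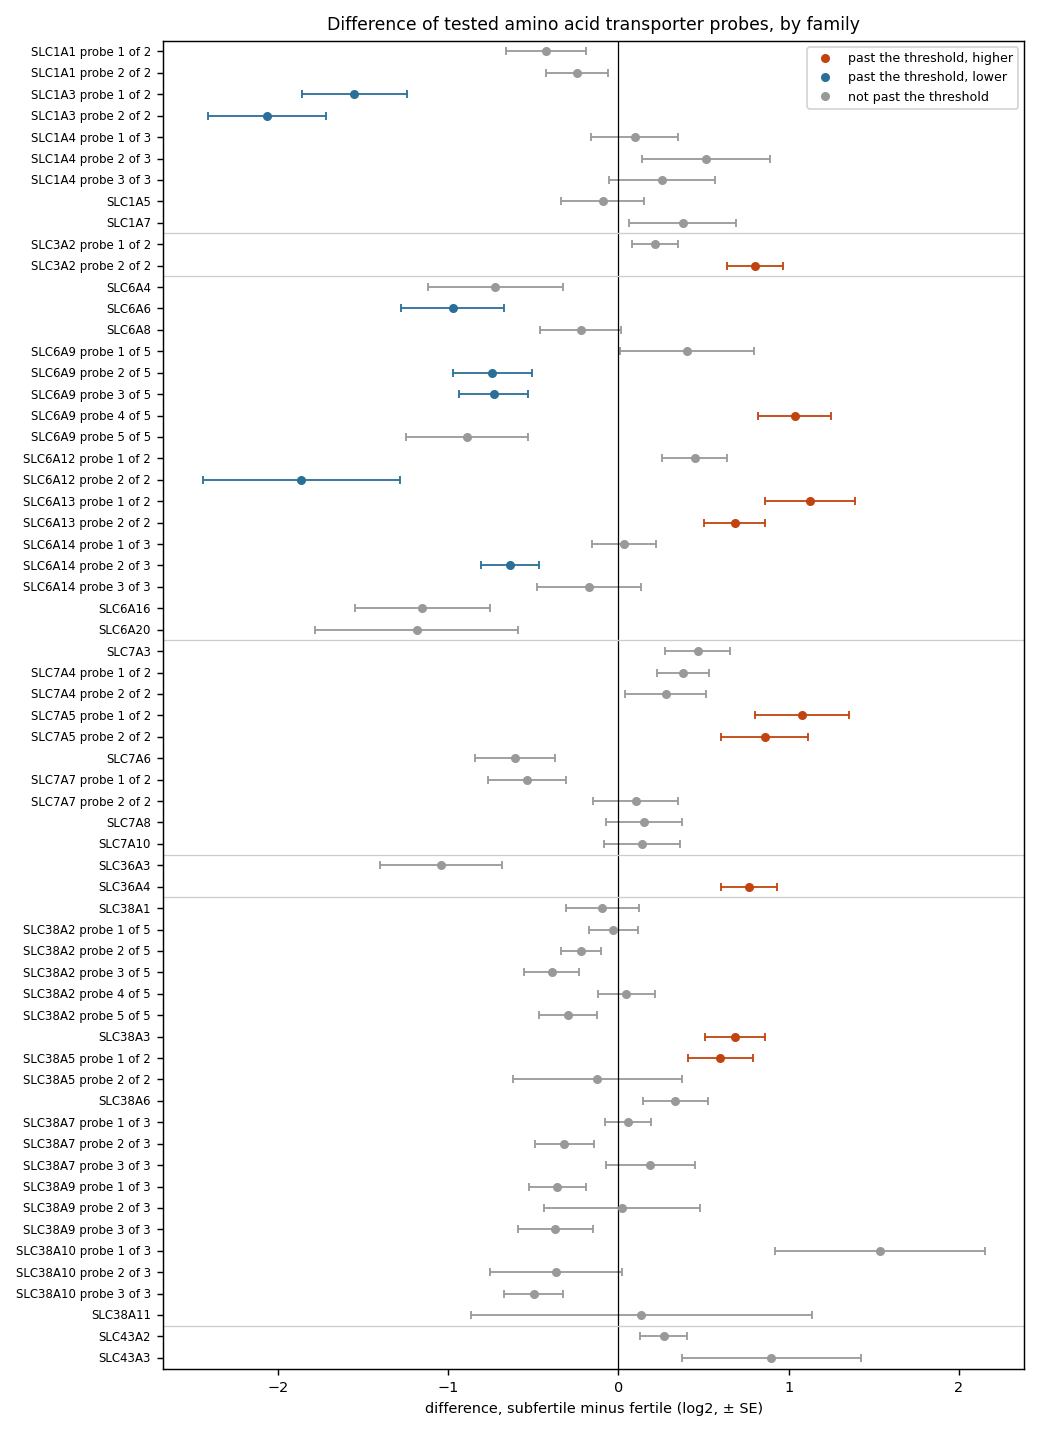
Difference between subfertile and fertile cows for the tested probes, 1 of the 63 not drawn (log2, horizontal axis, point with its standard error), grouped by family, with several probes of a gene numbered from the brightest. Orange points passed the test upward (9 probes), blue points downward (7 probes) and grey points did not pass. The 3 lowest called points are the SLC1A3 probes, at -1.55 and -2.06, and the dim SLC6A12 probe, at -1.86.

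The split between higher and lower calls moved with the scaling. With normexp background correction 35 members were higher and 4 lower, where 46.8% and 6.78% of all tested probes were. With quantile normalization 8 were higher and 11 lower, beside 10.2% and 9.83% of all probes, and with median centring 8 and 10, beside 10% and 10.7%. Of all calls on the array, 66.7% were higher with the 75th percentile, 87.3% with normexp, 50.9% with quantile normalization and 48.5% with median centring. Quantile normalization and median centring each kept 15 of the 16 called member probes past the threshold.

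The calls rest on arrays whose slide and day follow the groups. With a random block for slide 7 of the 16 called probes passed, where 8.51% of all probes were called higher and 3% lower. With a random block for scan day 0 of the 63 tested members passed in limma, with adjusted p from 0.0555 to 0.289 for those 16 probes, where 12 members had an unadjusted p below 0.05 and 2.46% of all probes were still called higher and 0.599% lower.

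System L, the exchange of large neutral amino acids such as leucine and tryptophan, is formed by the light chain SLC7A5 (LAT1) with the heavy chain SLC3A2 (4F2hc, also CD98). SLC7A5 was higher in subfertile cows on both of its tested probes, by 1.08 and 0.86. SLC3A2 was higher on 1 of 2 probes. The probe sequences are shown because the SLC3A2 probes differ in their call: the one that passed spans 445 bases of the genome and so crosses an intron, and the other carries AATAAA, the common polyadenylation signal, in capitals. The other sequences show the first 30 of 60 bases. AATAAA stood on the printed strand of 5 of the 99 member probes (5.05%) and of 9.35% of all probes on the array. Positions are those in the array files, on build HGSC Btau 3.1.
SLC3A2 probe A_73_P191102, chr29:42881950-42882394, plus strand: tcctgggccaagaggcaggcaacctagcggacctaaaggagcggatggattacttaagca
SLC3A2 probe A_73_P039191, bases 26 to 55, chr29:42887554-42887613, plus strand: tttctggtttcaAATAAAagtcactcctgc
SLC7A5 probe A_73_P040976, chr18:12563377-12563436, minus strand: gctttgggatggggagttttgtgttttgtt
SLC7A5 probe A_73_P350516, chr18:12564015-12564074, minus strand: tttgagactgttggggcctcagttttcttg

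The brighter SLC7A5 probe, A_73_P040976, ran from -0.27 to 1.04 in fertile cows with a median of 0.72, and read 1.23, 1.81, 1.21, 1.85 and 1.84 in subfertile cows 1 to 5. The lowest subfertile cow lay above the highest fertile cow, and fertile cows 1 and 6 were lowest. The difference was 1.08 ± 0.28 (SE, adjusted p = 0.0180), a 2.11-fold higher signal. The call held on leaving out any of the 11 cows, with adjusted p up to 0.0473, and was lost with a random block for slide (adjusted p = 0.0543). Between the fertile slides, cows 2 and 5 lay 0.79 above cows 1 and 3.

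The dimmer SLC7A5 probe ran from -4.48 to -2.99 in fertile cows with a median of -3.52, and read -3.11, -2.64, -2.99, -2.40 and -2.79 in subfertile cows. The groups overlapped at the lower subfertile cows. The difference was 0.86 ± 0.26 (adjusted p = 0.0327), and it lost the call on leaving out fertile cow 1 or 4 or subfertile cow 2, 4 or 5 (adjusted p up to 0.0746). The third SLC7A5 probe was above background on 1 array and was not tested.

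The SLC3A2 probe that crosses the intron ran from -3.41 to -2.60 in fertile cows with a median of -3.13, and read -2.08, -2.49, -2.08, -2.03 and -2.53 in subfertile cows. The groups did not overlap, and the difference of 0.80 ± 0.16 (adjusted p = 0.00672) held with a random block for slide (adjusted p = 0.0205) and without any 1 cow. The brighter probe, with AATAAA, ran from 2.36 to 2.84 in fertile cows with a median of 2.51, and read 3.16, 2.47, 2.72, 2.79 and 2.65 in subfertile cows. Here the groups overlapped, and the difference was 0.22 ± 0.14 (adjusted p = 0.268).

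The other large neutral carriers did not pass. SLC43A2 (LAT4), a facilitator of branched-chain amino acids, had a difference of 0.27 ± 0.14 (adjusted p = 0.182), and SLC7A8 (LAT2), another light chain of SLC3A2, 0.15 ± 0.22 (adjusted p = 0.664). All 4 tested probes of the large neutral class had differences above 0, and 2 passed, both of SLC7A5. SLC43A2 read -2.45, -1.99, -1.96, -2.09 and -1.68 in subfertile cows and from -2.50 to -2.11, with a median of -2.27, in fertile cows. SLC7A8 read -4.66, -6.07, -5.47, -5.57 and -5.01 in subfertile cows and from -5.72 to -5.06, with a median of -5.56, in fertile cows. For both genes the groups overlapped, and the SLC7A8 probe was above background in 3 of the 5 subfertile cows.

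**Figure D3:**
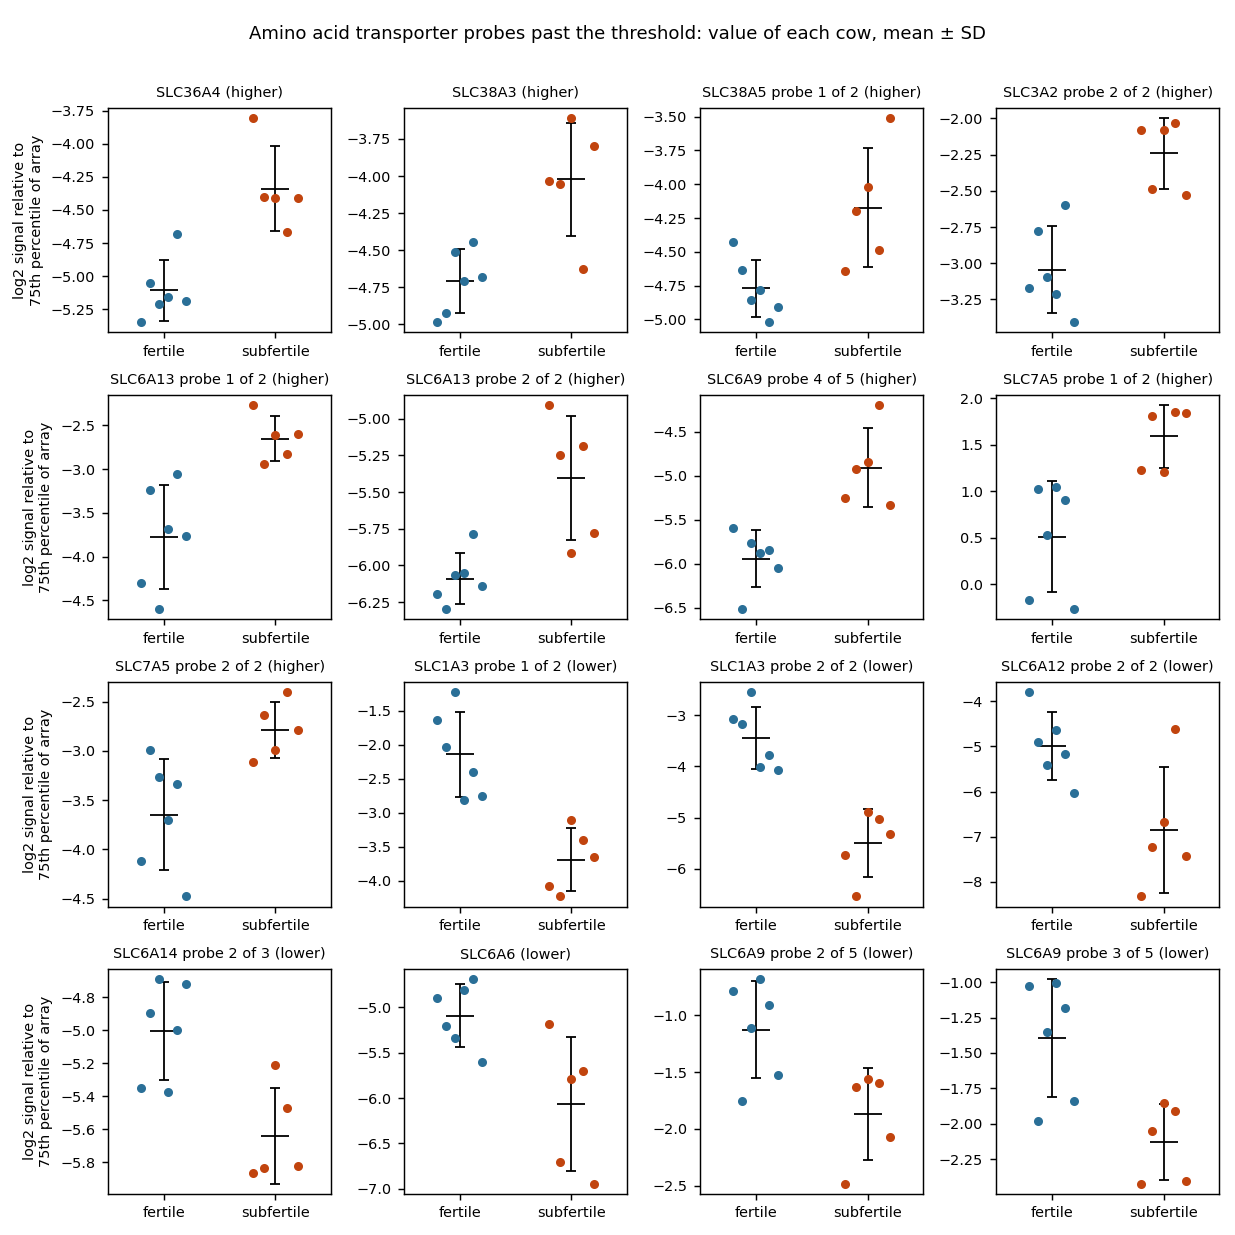
Value of each cow (log2 signal relative to the 75th percentile of the array) for the 16 member probes that passed the test, 1 panel a probe with its own vertical scale, fertile cows in blue and subfertile cows in orange, with the group mean and SD in black. The groups are separate in 7 panels, 5 of probes that were higher and both panels of SLC1A3, and overlap in the other 9.

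Acidic amino acids are taken up by the sodium-coupled glutamate carriers of SLC1. SLC1A3 (EAAT1, also GLAST) was lower in subfertile cows on both of its probes, and the dimmer of them was above background in 3 of the 5 subfertile cows. The first 30 of 60 bases of each are shown because they name the 2 places of the gene where the signal was read, on build HGSC Btau 3.1, minus strand, with under 1 kb between them.
SLC1A3 probe A_73_104256, chr20:39826436-39826495: atcacaggctctgcatatcacttgtaccca
SLC1A3 probe A_73_P040231, chr20:39826984-39827043: catgagagaaatagtagaagatgaatcggt

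SLC1A3 probe A_73_104256 ran from -2.81 to -1.22 in fertile cows with a median of -2.21, and read -4.07, -4.23, -3.10, -3.40 and -3.64 in subfertile cows. The second, A_73_P040231, ran from -4.07 to -2.55 in fertile cows with a median of -3.48, and read -5.74, -6.54, -4.88, -5.04 and -5.32 in subfertile cows. On both probes every subfertile cow lay below every fertile cow, with subfertile cow 2 lowest and fertile cow 3 highest. The differences were -1.55 ± 0.31 (adjusted p = 0.00592) and -2.06 ± 0.34 (adjusted p = 0.00269). Both calls held without any 1 cow (adjusted p up to 0.0184) and with a random block for slide (adjusted p = 0.0227 and 0.0155). After normexp background correction the second probe stood at -0.07 (adjusted p = 0.820) and the first at -0.64 (adjusted p = 0.0499).

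SLC1A1 (EAAT3), the glutamate carrier of epithelia, ran from 3.95 to 4.68 in fertile cows with a median of 4.20, and read 3.99, 3.19, 4.44, 4.14 and 3.47 in subfertile cows. The groups overlapped, with differences of -0.43 ± 0.24 (adjusted p = 0.215) and -0.24 ± 0.18 (adjusted p = 0.360) on its 2 probes. SLC1A7 (EAAT5), known from the retina, was above background on 4 fertile arrays and 1 subfertile array. The neutral exchangers of the same family did not pass either. SLC1A4 (ASCT1), which exchanges alanine, serine and cysteine, ran from 0.68 to 1.96 in fertile cows with a median of 1.46, and read 1.13, 1.97, 1.62, 0.86 and 1.78 in subfertile cows. SLC1A5 (ASCT2), an exchanger of glutamine, ran from -1.77 to -0.67 with a median of -1.29, and read -0.96, -1.58, -2.03, -0.82 and -1.38. Both genes had overlapping groups, with differences of 0.10 ± 0.25 (adjusted p = 0.812) for SLC1A4 and -0.09 ± 0.24 (adjusted p = 0.816) for SLC1A5.

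Among the SLC6 carriers of GABA, taurine, betaine and creatine, SLC6A13 (GAT2), which takes up GABA and taurine, was higher on both of its probes. SLC6A6 (TAUT), the taurine carrier, and 1 of 2 tested probes of SLC6A12 (BGT1), the betaine carrier, passed the test downward. Both of those probes were above background in only 1 subfertile cow, so they entered the test through the fertile group. Both had a positive difference with normexp background correction, as did both probes of SLC1A6, which were above background on no array. The whole brighter SLC6A13 probe is shown because it gave the largest rise among the called members. It lies at chr5:114091332-114091391 of build HGSC Btau 3.1, minus strand.
SLC6A13 probe A_73_P262721: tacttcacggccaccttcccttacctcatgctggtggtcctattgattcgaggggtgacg

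This SLC6A13 probe ran from -4.60 to -3.06 in fertile cows with a median of -3.73, and read -2.27, -2.94, -2.61, -2.83 and -2.60 in subfertile cows. The groups did not overlap, and fertile cows 2 and 5 were nearest to the subfertile cows. The difference was 1.13 ± 0.26 (adjusted p = 0.0122), 2.18-fold, and fertile cows 2 and 5 lay 1.30 above fertile cows 1 and 3, more than the group difference. The dimmer probe differed by 0.68 ± 0.18 (adjusted p = 0.0211), with overlap, and lost the call without subfertile cow 2 (adjusted p = 0.0544). Both calls passed with a random block for slide (adjusted p = 0.0196 and 0.0426).

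SLC6A6 ran from -5.60 to -4.69 in fertile cows with a median of -5.06, and read -5.19, -6.70, -5.79, -5.71 and -6.94 in subfertile cows. Subfertile cow 1 lay within the fertile range and cows 2 and 5 were lowest. The difference was -0.97 ± 0.30 (adjusted p = 0.0400), and with normexp background correction it was 0.92. The call was lost by removing any of 8 cows, all but fertile cow 6 and subfertile cows 1 and 4 (adjusted p up to 0.100), and with a random block for slide (adjusted p = 0.175).

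The dim SLC6A12 probe that passed ran from -6.03 to -3.80 in fertile cows with a median of -5.03, and read -8.32, -7.22, -6.68, -4.61 and -7.43 in subfertile cows. Subfertile cow 4, the only 1 above background, lay among the fertile cows and the other 4 lay below them. The difference was -1.86 ± 0.58 (adjusted p = 0.0397), turned to 0.74 with normexp background correction, and lost the call by removing any of 9 cows, all but fertile cow 6 and subfertile cow 4 (adjusted p up to 0.0885). The brighter SLC6A12 probe had the opposite sign, 0.45 ± 0.19 (adjusted p = 0.110), and passed upward without subfertile cow 4 (adjusted p = 0.0452). The creatine carrier SLC6A8 did not pass, at -0.22 ± 0.24 (adjusted p = 0.536).

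Among carriers of glycine and proline, SLC36A4 (PAT4), which carries proline and tryptophan, was higher, and the probes named SLC6A9 (GlyT1), the glycine carrier, disagreed. SLC36A4 ran from -5.35 to -4.68 in fertile cows with a median of -5.17, and read -3.80, -4.41, -4.41, -4.66 and -4.41 in subfertile cows. The groups did not overlap, although the highest fertile cow, cow 5, was close to subfertile cow 4. The difference was 0.77 ± 0.16 (adjusted p = 0.00782), held without any 1 cow and passed with a random block for slide (adjusted p = 0.0189).

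The sequences of 3 SLC6A9 probes are shown because they share a stretch of 16 bases, in capitals, that only these 3 probes on the array hold on either strand, and yet their signals differ. The first 2 lie on chromosome 3 and the other on chromosome 13 of build HGSC Btau 3.1, where its accession belongs to LOC515755 in the RefSeq table, and the last 2 share 50 of 60 bases, so which transcript they measured is uncertain.
SLC6A9 probe A_73_103477, bases 31 to 60, chr3:108941824-108941883, plus strand: ccgaccatccgcgcACCACTAGGATTTTAA
SLC6A9 probe A_73_P038681, bases 1 to 30, chr3:108941865-108941924, plus strand: cgcACCACTAGGATTTTAAagtccataggt
SLC6A9 probe A_73_P031291, bases 4 to 33, chr13:37698755-37698814, minus strand: tctgcgtACCACTAGGATTTTAAagtccat

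Probe A_73_103477, the brightest named SLC6A9, ran from 0.14 to 2.01 in fertile cows with a median of 0.46, and read 1.94, 0.95, 1.63, 0.74 and 1.01 in subfertile cows. The groups overlapped, with a difference of 0.40 ± 0.39 (adjusted p = 0.488) beside 1.72 between the fertile slides. Probe A_73_P038681 ran from -1.76 to -0.68 with a median of -1.01 in fertile cows, and read -2.48, -1.63, -1.56, -1.59 and -2.07 in subfertile cows. Probe A_73_P031291 ran from -1.98 to -1.0 with a median of -1.27, and read -2.42, -2.05, -1.85, -1.91 and -2.41. On both of these probes all subfertile cows lay below every fertile cow except cow 2. Their differences were -0.74 ± 0.23 (adjusted p = 0.0414) and -0.73 ± 0.20 (adjusted p = 0.0261). The first of these calls was lost without any of 7 cows (all but fertile cows 2 and 6 and subfertile cows 3 and 4, adjusted p up to 0.0905), the second without any of 6 (fertile cows 1, 4 and 5 and subfertile cows 1, 2 and 5, adjusted p up to 0.0636), and neither passed with a random block for slide (adjusted p = 0.100 and 0.0874).

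Another SLC6A9 probe, A_73_P508073, whose accession also belongs to LOC515755, went the other way. It ran from -6.52 to -5.59 in fertile cows with a median of -5.87, and read -5.25, -4.92, -4.84, -4.19 and -5.33 in subfertile cows. The groups did not overlap, and the difference was 1.03 ± 0.22 (adjusted p = 0.00750), passing with a random block for slide (adjusted p = 0.0364). The remaining tested SLC6A9 probe was at -0.89 and did not pass. Of the 5 tested probes, 2 had a difference above 0, so no direction can be given for SLC6A9 as a gene.

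SLC6A20 (SIT1), the carrier of proline and other imino acids, varied widely within both groups. It ran from -1.82 to 1.25 in fertile cows with a median of 0.77, and read -1.75, -0.95, -1.40, 1.0 and -1.32 in subfertile cows. The difference was -1.18 ± 0.60 (adjusted p = 0.174), and the call was gained on leaving out fertile cow 6 or subfertile cow 4, with adjusted p as low as 0.0346. SLC36A3 (PAT3) was at -1.04 ± 0.36 (adjusted p = 0.0572), above background in 1 subfertile cow, and turned to 0.94 with normexp background correction. It entered the test through the fertile group, so no direction is given, although it passed downward without subfertile cow 1 or 2 (adjusted p as low as 0.0398). SLC36A2, SLC6A5 and SLC6A7 were not bright enough to be tested.

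SLC6A14 (ATB0,+), which concentrates both neutral and cationic amino acids, had 3 tested probes that differed in call. Its brightest probe ran from -2.97 to -2.38 in fertile cows with a median of -2.62, and read -3.29, -2.74, -2.30, -2.50 and -2.38 in subfertile cows, a difference of 0.03 ± 0.19 (adjusted p = 0.916) with overlapping groups. The second probe, above background in 3 subfertile cows, was lower by test at -0.64 ± 0.17 (adjusted p = 0.0232), read -5.86, -5.84, -5.21, -5.47 and -5.82 in subfertile cows and from -5.37 to -4.69 in fertile cows, and turned to 0.81 with normexp background correction. That call was lost without subfertile cow 1, 2 or 5 (adjusted p up to 0.0606). The third probe was at -0.17 ± 0.30 (adjusted p = 0.716).

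None of the 4 tested probes for cationic carriers, which take up arginine, lysine and ornithine, passed the limma test. The smallest of their unadjusted p-values belonged to SLC7A6 (y+LAT2), and its adjusted p was 0.0862, while 3 of the 4 had an unadjusted p below 0.05. SLC7A7 (y+LAT1), a light chain that exchanges cationic for neutral amino acids, ran from 0.48 to 1.42 in fertile cows with a median of 0.86, and read -0.08, 0.19, 0.71, 0.88 and 0.11 in subfertile cows. The groups overlapped at subfertile cows 3 and 4, with a difference of -0.54 ± 0.23 (adjusted p = 0.112) on this probe and 0.10 ± 0.25 (adjusted p = 0.80) on the other. SLC7A6, the related light chain, ran from -5.61 to -4.92 with a median of -5.25, and read -5.19, -5.81, -6.19, -6.61 and -5.58, a difference of -0.61 ± 0.24 that turned to 0.96 with normexp background correction. Its probe was above background in 1 subfertile cow, so it entered the test through the fertile group and no direction is given. It passed downward without subfertile cow 1, the brightest of its group (adjusted p = 0.0313). SLC7A3 (CAT3) was at 0.47 ± 0.19 (adjusted p = 0.0973) and passed without subfertile cow 1 or 4 (adjusted p as low as 0.0443). The other system y+ carriers, SLC7A1 and SLC7A2, were not well above background on any array.

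The SLC38 family holds the sodium-coupled carriers of glutamine, alanine and other small neutral amino acids. Its system N members SLC38A3 (SNAT3) and SLC38A5 (SNAT5), which carry glutamine, histidine and asparagine, were higher, SLC38A5 on 1 of its 2 tested probes, and its system A members did not pass. SLC38A3 ran from -4.98 to -4.45 in fertile cows with a median of -4.69, and read -4.03, -4.05, -3.61, -4.62 and -3.79 in subfertile cows. Only subfertile cow 4 lay within the fertile range. The difference was 0.69 ± 0.18 (adjusted p = 0.0183), held without any 1 cow (adjusted p up to 0.0469) and was lost with a random block for slide (adjusted p = 0.0681). SLC38A5 ran from -5.02 to -4.42 with a median of -4.82, and read -4.64, -4.20, -4.02, -4.49 and -3.51. Subfertile cows 1 and 4 lay within the fertile range and cow 5 was highest. Its difference of 0.60 ± 0.19 (adjusted p = 0.0444) lost the call without any of 8 cows, all but fertile cow 1 and subfertile cows 1 and 4 (adjusted p up to 0.0872), and with a random block for slide, quantile normalization or median centring (adjusted p = 0.135, 0.131 and 0.0875). The other SLC38A5 probe, above background in 1 subfertile cow, was at -0.12 ± 0.50 (adjusted p = 0.882).

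SLC38A2 (SNAT2), the main carrier of system A, had 5 tested probes, all above background on every array, and none passed. Its brightest ran from 1.40 to 2.02 in fertile cows with a median of 1.73, and read 1.74, 1.52, 1.66, 1.84 and 1.69 in subfertile cows, within the fertile range. The differences of the 5 probes were -0.03, -0.22, -0.39, 0.05 and -0.30, with adjusted p from 0.0994 to 0.903 and 1 unadjusted p below 0.05. The probe at -0.39 passed without fertile cow 5 (adjusted p = 0.0466). SLC38A1 (SNAT1) ran from -4.82 to -3.44 with a median of -4.21, and read -4.35, -4.42, -4.10, -4.57 and -4.13. Those values also lay within the fertile range, with a difference of -0.09 ± 0.22 (adjusted p = 0.785). SLC38A4, the third system A carrier, was above background on 1 array at most and was not tested.

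Of the members found on lysosomes, SLC38A9, an arginine sensor for mTORC1, had differences of -0.36, 0.02 and -0.37 on 3 probes (adjusted p = 0.150, 0.979 and 0.251), and SLC38A7, which exports glutamine, had 0.06, -0.32 and 0.19 (adjusted p = 0.793, 0.208 and 0.638). SLC38A6 was at 0.33 ± 0.19 (adjusted p = 0.224). The orphan SLC6A16 was not above background in any subfertile cow and in 5 of 6 fertile cows. As a bound against the dimmest signal marked above background it would be at least 1.07-fold lower in subfertile cows, and this bound was not tested. The limma difference was -1.15 (adjusted p = 0.0573), on values not above background in subfertile cows. SLC6A16 entered the test only through the fertile cows, so no direction is given. With normexp background correction its difference was 1.01. Of the remaining tested members, SLC7A10 (Asc-1), SLC7A4, SLC6A4 and SLC43A3 did not pass, although the brighter SLC7A4 probe did without fertile cow 5 (adjusted p = 0.0256).

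Some members varied widely between cows of a group. The median SD over the 63 tested member probes was 0.388 in fertile and 0.411 in subfertile cows, and over all tested probes 0.277 and 0.249. SLC38A11 had the widest spread, with an SD of 1.41 in fertile and 2.33 in subfertile cows, where subfertile cow 1 read -1.67 and cow 3 read -7.85. Next was the brightest probe of SLC38A10, with an SD of 1.5 in fertile and 0.45 in subfertile cows. That probe read from -2.77 to 0.42 in fertile cows with a median of -2.32, and 0.48, -0.12, 0.45, -0.52 and -0.27 in subfertile cows. Fertile cows 2 and 5 lay 2.96 above fertile cows 1 and 3, a wider gap than the group difference of 1.54 ± 0.62 (adjusted p = 0.0955), and the call was gained on leaving out fertile cow 2 or 5 (adjusted p as low as 0.0289). Of the 16 called probes, 8 had a difference between the fertile slides in the direction of the group difference and at least 50% of its size: both probes of SLC7A5, the called probe of SLC3A2, the brighter probe of SLC6A13, SLC36A4, the brighter probe of SLC1A3 and the 2 lower probes of SLC6A9. How much of the group differences came with slide and day was not tested.

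**Figure D4:**
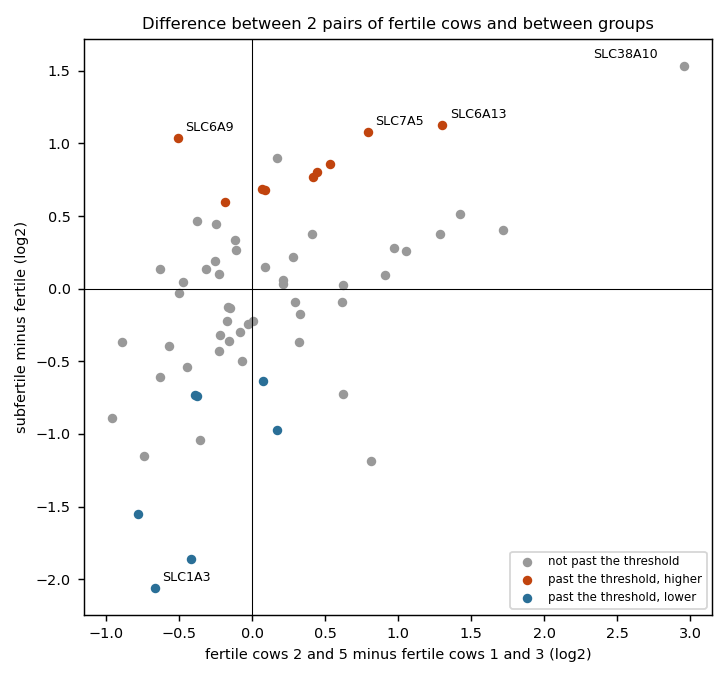
Difference between fertile cows 2 and 5 and fertile cows 1 and 3, which lay on separate slides scanned on separate days (log2, horizontal axis), against the difference between subfertile and fertile cows (log2, vertical axis) for the 63 tested probes. Orange and blue points passed the group test upward and downward. The SLC38A10 probe at 2.96 on the horizontal axis and the SLC6A13 probe at 1.30 differed more between fertile slides than between groups.

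Genes that sense, answer to and use amino acids were taken as a companion list of 83 genes, of which 74 were tested, 1 probe a gene. Of these, 8 were higher and 8 lower, with a median difference of -0.02, where 14.2% of all gene names tested were higher and 7.91% lower. The amino acid sensing branch held 4 of the higher and 3 of the lower genes out of 22 tested. RRAGB, a Rag GTPase that brings mTORC1 to the lysosome, ran from 0.59 to 1.25 in fertile cows with a median of 0.66, and read 0.16, -0.01, 0.34, 0.08 and -0.10 in subfertile cows. LAMTOR1, the membrane anchor of the Ragulator complex on which the Rag GTPases sit, ran from 3.08 to 3.83 with a median of 3.68, and read 4.31, 4.29, 4.33, 4.12 and 4.30. The groups were separate for both genes, in opposite directions: -0.68 ± 0.14 (adjusted p = 0.00633) for RRAGB and 0.71 ± 0.14 (adjusted p = 0.00651) for LAMTOR1, which was higher on all 4 of its probes.

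NPRL3, a subunit of the GATOR1 complex that restrains mTORC1, differed by 0.68 ± 0.14 (adjusted p = 0.00651), with subfertile cow 4 inside the fertile range. Of the 2 tested NPRL3 probes, 1 passed. NOS3, the endothelial nitric oxide synthase that uses arginine, ran from -3.41 to -2.80 in fertile cows with a median of -2.87, and read -2.24, -2.28, -2.66, -2.08 and -2.24 in subfertile cows. Its groups did not overlap, with a difference of 0.70 ± 0.14 (adjusted p = 0.00688). The endothelial markers had a median difference of 0.19, with 2 of 6 tested higher and 0 lower, beside 14.2% and 7.91% of all gene names. The part of endothelial cells in the NOS3 difference was not tested. RRAGB, LAMTOR1, NPRL3 and NOS3 passed with a random block for slide (adjusted p = 0.0188 to 0.0250). Fertile cows 2 and 5 minus fertile cows 1 and 3 gave -0.16, 0.56, 0.30 and -0.20 for these genes, in that order.

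Another 5 genes of the list were followed whatever their values, and none of the 5 passed limma, with 1 unadjusted p below 0.05, that of ATF4. ATF4, the transcription factor of the amino acid response, ran from 4.63 to 5.37 in fertile cows with a median of 5.2 and read 5.39, 5.40, 5.50, 5.40 and 5.61 in subfertile cows. All subfertile cows lay just above the highest fertile cow, with a difference of 0.37 ± 0.14 (adjusted p = 0.0832). Its target ASNS, asparagine synthetase, was at -0.04 ± 0.18 (adjusted p = 0.906). ODC1, the first enzyme of polyamine synthesis, was at -0.44 ± 0.23 (adjusted p = 0.187), ARG2, the mitochondrial arginase, at -0.25 ± 0.29 (adjusted p = 0.574), and MTOR at -0.09 ± 0.16 (adjusted p = 0.733). The remaining genes that passed on their brightest tested probe are named here after their values were seen. Those higher were LAMTOR2, the arginine sensor CASTOR1, CEBPB, the glutaminase GLS2 and the peptide carrier SLC15A2. Fertile cows 2 and 5 lay 2.70 above fertile cows 1 and 3 for CEBPB and 1.22 for SLC15A2. Both gaps were wider than the group differences of 1.92 and 1.12. For CASTOR1 the gap between the fertile slides was 0.48, beside a group difference of 0.51, and for LAMTOR2 and GLS2 it was -0.09 and -0.33. Those lower were RRAGD, the leucine sensor SESN2, the polyamine acetyltransferase SAT1, the branched-chain aminotransferase BCAT1, the cysteine dioxygenase CDO1, the lysosomal carrier SLC15A4, which also had a probe called higher, and the cystine exporter CTNS. Among these the gap between the fertile slides was -0.53 for RRAGD, -0.43 for CDO1 and -0.22 for CTNS, beside group differences of -0.63, -0.77 and -0.44. For the rest it ran from -0.07 to 0.04. CASTOR1, GLS2, SAT1, BCAT1 (without a value in fertile cow 1) and SLC15A4 kept their calls without any 1 cow, and the other 7 lost theirs without 1 of at least 4 cows, with adjusted p up to 0.0635 for CEBPB and 0.0975 for CDO1. GLS2, SLC15A2, SESN2, CDO1 and CTNS passed on 1 of 2 tested probes, BCAT1 on 1 of 3 and RRAGD on 2 of 3. Some genes that did not pass on their brightest probe had a dimmer probe that did. It was higher in CLTRN, RPTOR, AKT1S1, RRAGA, GLUL and GPT, and lower in AMD1 and PAOX. With a random block for scan day 0 of the 74 genes passed in limma, where 15 had an unadjusted p below 0.05.

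**Figure D5:**
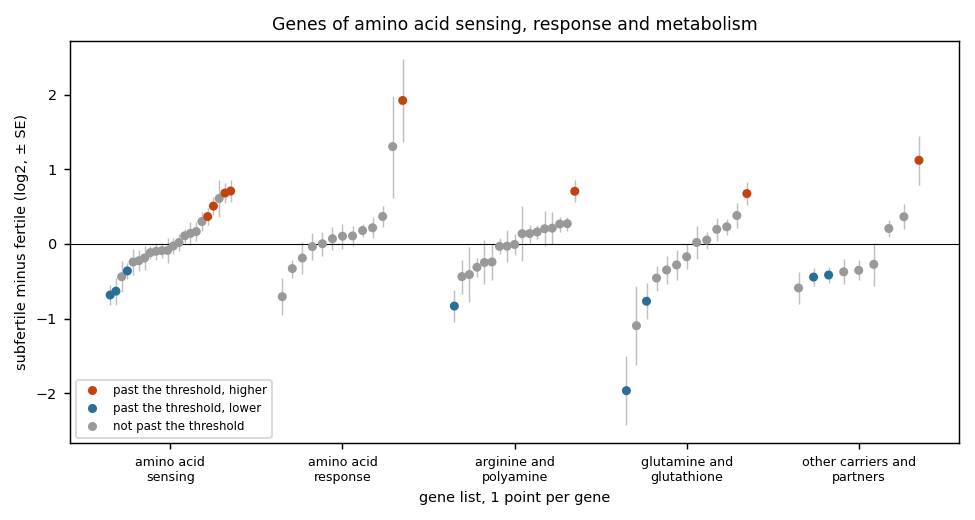
Difference between subfertile and fertile cows (log2, vertical axis, point with its standard error) for 74 tested genes of 5 lists around amino acid sensing, response and metabolism, 1 point a gene, sorted within each list. Orange points passed the test upward (8 genes) and blue points downward (8 genes), and the sensing list holds 4 and 3 of them.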

How the data were processed

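Total RNA from endometrial biopsies was labelled with the dye Cy3, per the labels' protocols, and the submitters' processing notes name Agilent Feature Extraction 10.5.1.1 for the signals. The scanner files deposited by the authors hold intensity on a linear scale, a processed signal after background subtraction, and a flag for spots well above background. A second table by the authors, of deposited log2 values, was set against the scanner files and used as an alternative. The comparison used each array's difference from fertile cow 2, after subtraction of the array's median shift. In the other arrays this difference lay within 0.01 of that in the scanner values for 100% of probes, except for fertile cow 1 (17.0%). An offset of a probe shared by all arrays would not show. The column medians of the second table ran from -0.08 to 0.09, and its direction is that of the signal. The file of fertile cow 6 has no header and no usable gene names, so names were joined by probe.

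Control and outlier spots were left out. The log2 processed signal minus the 75th percentile of each array was tested in limma 3.58.1 under R 4.3.3 (lmFit and eBayes with group as the only term). P-values were adjusted by Benjamini-Hochberg over the 31876 probes well above background on at least 5 of 11 arrays. The step was tested on simulated data, drawn independently for each probe and array without an effect of slide or day. That simulation cannot speak to calls where slide and day follow the groups. A gene is represented by its brightest tested probe. Values are given for genes with a called probe and for a list of uterine or placental carriers, and for the 4 companion genes with the smallest p and ATF4, ASNS, ODC1, ARG2 and MTOR. The values of 1 member gene are not reported here, although counts include it. The members and lists were chosen with earlier results of these data known. No reading frame was checked against a protein, and sequences are the array's own. The labels name each sample as a separate cow, with 1 array each.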

Additional observations from a re-analysis of the deposited data

Results flagged for a closer look

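In SLC7A8, the light chain LAT2, fertile cow 6 read -5.06 and lay far above the other fertile cows, the nearest of which read -5.50. This was 1 of 40 groups of cows checked for an outlying value with Dixon's criterion, which flags about 1 group in 20 by chance.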

How the results depend on the processing

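The authors' value table gave the same counts as the scanner signals, 9 higher and 7 lower member probes and 8 and 8 companion genes. Normexp background correction gave 35 higher and 4 lower members and 21 higher companion genes, quantile normalization 11 lower members and 13 lower companion genes, and median centring 13 lower companion genes. Over all tested probes the median difference stood at 0.07 with the 75th percentile, 0.33 with normexp, -0.01 with quantile normalization and -0.02 with median centring. Requiring signal above background on all 11 arrays left 3 lower members, and no filter gave 23 higher ones, through probes that could not be tested before. Those probes were above background on fewer than 5 arrays. Of the 36 untested member probes, 28 were above background on no array, so no direction is given for them. Slide as a random block gave 5 higher and 2 lower members and 1 lower companion gene, and scan day gave 0 in all 4 counts. The cause of these changes was not tested. Without 1 cow, higher members ranged from 6 to 10 and lower from 2 to 8, and companion genes from 5 to 9 and from 4 to 11.

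The cow numbers are shared between groups but do not pair the cows: same-numbered cows correlated at -0.21, 0.17, 0.22, -0.04 and -0.16, and 2 of 5 were closest to their own number. With the replicate block, which drops fertile cow 6, 5 members were higher and 5 lower, with 6 higher and 5 lower companion genes, and SLC38A1 and SLC38A2 turned to 0.063 and 0.024.

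Among the differences of 20 genes, normexp turned SLC1A5 to 0.048, SLC38A1 to 0.66, SLC6A6 to 0.92 and SLC7A6 to 0.96. SLC6A14 turned to -0.043 with quantile normalization, -0.058 with median centring and -0.013 with slide as a random block. The mean over the probes of a gene was -0.71 for SLC6A12, -0.26 for SLC6A14 and -0.18 for SLC6A9. Without 1 cow the difference ranged from -0.041 to 0.25 for SLC1A4, -0.22 to 0.079 for SLC1A5, -0.21 to 0.063 for SLC38A1, -0.093 to 0.031 for SLC38A2, -0.051 to 0.20 for SLC6A14 and -0.025 to 0.33 for SLC7A8. Of the 7 lower calls, 3 were above background in every subfertile cow, and 3 were positive with normexp.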
